A study of Mus musculus with 2 samples.

Results

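The genes described here encode the Wnt ligands, their receptors and their regulators, chosen by symbol among the genes that RefSeq annotates on GRCm38.p6 (mm10), and the regions listed near them in a comparison of methylated DNA between 2 genotypes of mouse chondrocytes. The symbols were those of the Wnt, Fzd, Sfrp, Dkk and Rspo families together with Lrp5, Lrp6, Ror1, Ror2, Axin1, Axin2, Ctnnb1, Apc, Lef1, Tcf7, Tcf7l1 and Tcf7l2, which gave 53 of 21887 protein-coding genes. A region belonged to a gene when it overlapped the annotated span widened by 5 kb on both sides, and 103 of the 35861 listed regions did so, each near a single one of the 53 genes. The samples were primary chondrocytes from knee cartilage of Uhrf1 cKO mice and of Control mice, all C57BL/6, taken at postnatal day 3 and treated at confluence with recombinant human BMP-2 (100 ng/ml, 24 hours). Uhrf1 is needed to copy DNA methylation onto newly made strands, and cKO stands for its conditional knockout, for which no source used here gives the Cre driver or the number of animals. DNA bound by the methyl-CpG binding protein MBD2 was sequenced (MBD-seq), with 1 library per genotype, of 15039206 kept tags for cKO and 9782276 for Control.

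Only regions with less cKO than Control signal were in the list. Each has the number of Control tags it held. Its fold, the Control signal at the summit over the background expected from the cKO library, runs as Control over cKO, so a fold above 1 means less cKO than Control signal, and it grows with the Control summit as well as with a lower cKO background. Its false discovery rate (FDR, in percent) comes from the caller's swap of the libraries. Folds and FDR values are the authors' own. No difference has a replicate check and no p-value was computed. cKO tags per region were not used here. A gene with no listed region can be unmethylated in both genotypes or methylated alike in both. It can also have more cKO signal, a loss short of the caller's limit, or too few tags to be called. With no expression values, the labelled cell type could not be set against markers.

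Wnt proteins are secreted lipid-modified ligands that bind Frizzled receptors (Fzd) and the co-receptors Lrp5 and Lrp6. Binding stops a destruction complex built on Axin and Apc, so that beta-catenin (Ctnnb1) accumulates and acts in the nucleus with the Tcf and Lef factors. In the growth plate this branch opposes early chondrocyte identity and promotes maturation and bone formation, whereas a branch without beta-catenin, in which Wnt5a and Ror2 act, orients and elongates the limb skeleton.

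The windows around annotated starts held no listed region, and few windows of any protein-coding gene did. Of the 53 genes, 35 (66.0%) have start windows in the RefSeq promoter table (GRCm38.p6, 250 bases before to 50 after the start), and 0 of their 44 windows overlapped a region. Of all protein-coding windows, 175 of 21263 did so (0.823%), so 0 of 44 is near the share of all genes. The other 18 of the 53 genes have no window and were not checked in this way. CG, the dinucleotide that is methylated and that reads alike on both strands, was counted in each window. Those of the Wnt genes held 4 to 58 CG, and 20279 of the 21263 coding windows (95.4%) held at least 1. As fewer than 80% of the genes have a window, CG content was not compared over the family. The windows shown belong to Tcf7l1 and Tcf7l2, which held the most regions, and to Wnt4, whose regions all lay at the other end of the gene, with each CG in capitals. The outer Tcf7l2 window (chr19:55741560-55741859, plus strand) held 34 CG and lay 8.98 kb from the nearest region. The inner one, at a second annotated start (chr19:55895071-55895370, plus strand), held 7 CG and lay 262 bp from a region. The Tcf7l1 window (chr6:72788996-72789295, minus strand) held 34 CG, 2.26 kb from a region, and the Wnt4 window (chr4:137277385-137277684, plus strand) held 51 CG, 19.1 kb from one. Windows with at least 51 CG made up 0.898% of all coding windows, those with at least 34 made up 10.2%, and those with at least 7 made up 64.3%.
Tcf7l2 outer start: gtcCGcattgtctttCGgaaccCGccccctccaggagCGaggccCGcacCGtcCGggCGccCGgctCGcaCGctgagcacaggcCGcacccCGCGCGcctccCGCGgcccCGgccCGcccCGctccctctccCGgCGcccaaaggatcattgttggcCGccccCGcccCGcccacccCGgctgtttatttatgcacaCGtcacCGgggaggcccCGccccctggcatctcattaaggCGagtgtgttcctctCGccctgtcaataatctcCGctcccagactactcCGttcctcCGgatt
Tcf7l2 inner start: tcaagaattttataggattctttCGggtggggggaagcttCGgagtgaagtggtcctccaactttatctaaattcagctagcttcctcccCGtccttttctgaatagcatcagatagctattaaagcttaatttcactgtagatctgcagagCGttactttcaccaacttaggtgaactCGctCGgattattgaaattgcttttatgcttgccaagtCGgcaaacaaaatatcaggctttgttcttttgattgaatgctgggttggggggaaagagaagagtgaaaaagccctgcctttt
Tcf7l1 start: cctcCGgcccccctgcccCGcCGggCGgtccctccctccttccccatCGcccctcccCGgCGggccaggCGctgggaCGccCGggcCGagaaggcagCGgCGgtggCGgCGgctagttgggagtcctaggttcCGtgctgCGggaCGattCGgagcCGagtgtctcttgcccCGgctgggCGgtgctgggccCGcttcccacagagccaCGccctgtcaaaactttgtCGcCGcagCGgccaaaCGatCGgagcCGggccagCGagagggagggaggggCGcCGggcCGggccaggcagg
Wnt4 start: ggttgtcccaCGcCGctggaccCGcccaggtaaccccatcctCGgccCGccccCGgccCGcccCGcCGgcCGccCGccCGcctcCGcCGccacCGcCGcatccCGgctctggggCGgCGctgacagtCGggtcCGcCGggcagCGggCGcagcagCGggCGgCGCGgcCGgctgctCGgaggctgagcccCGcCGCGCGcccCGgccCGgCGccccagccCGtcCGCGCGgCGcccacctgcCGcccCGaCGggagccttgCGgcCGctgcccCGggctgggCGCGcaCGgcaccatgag

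The family as a whole carried regions about as often as other genes, and the roles, whose genes differ in length, had different counts. A region was found for 24 of the 53 genes (45.3%, 95% Wilson interval 32.7 to 58.5), against 47.4% of all protein-coding genes. Counting regions with an FDR of at most 5%, 21 of the 53 (39.6%) had a region, against 35.1%. Ligand genes were the least often hit of the larger groups, at 5 of 19 (26.3%, 11.8 to 48.8), and of 4 R-spondin genes only Rspo2 was. Regions lay near 6 of 12 receptor genes (50%, 25.4 to 74.6), both co-receptor genes and 3 of 8 secreted inhibitor genes (37.5%, 13.7 to 69.4). All 3 genes of the destruction complex and 4 of 5 transcription genes had at least 1. Intervals and densities here cover counting error only, and genes are not replicates of the genotypes.

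**Figure D1:**
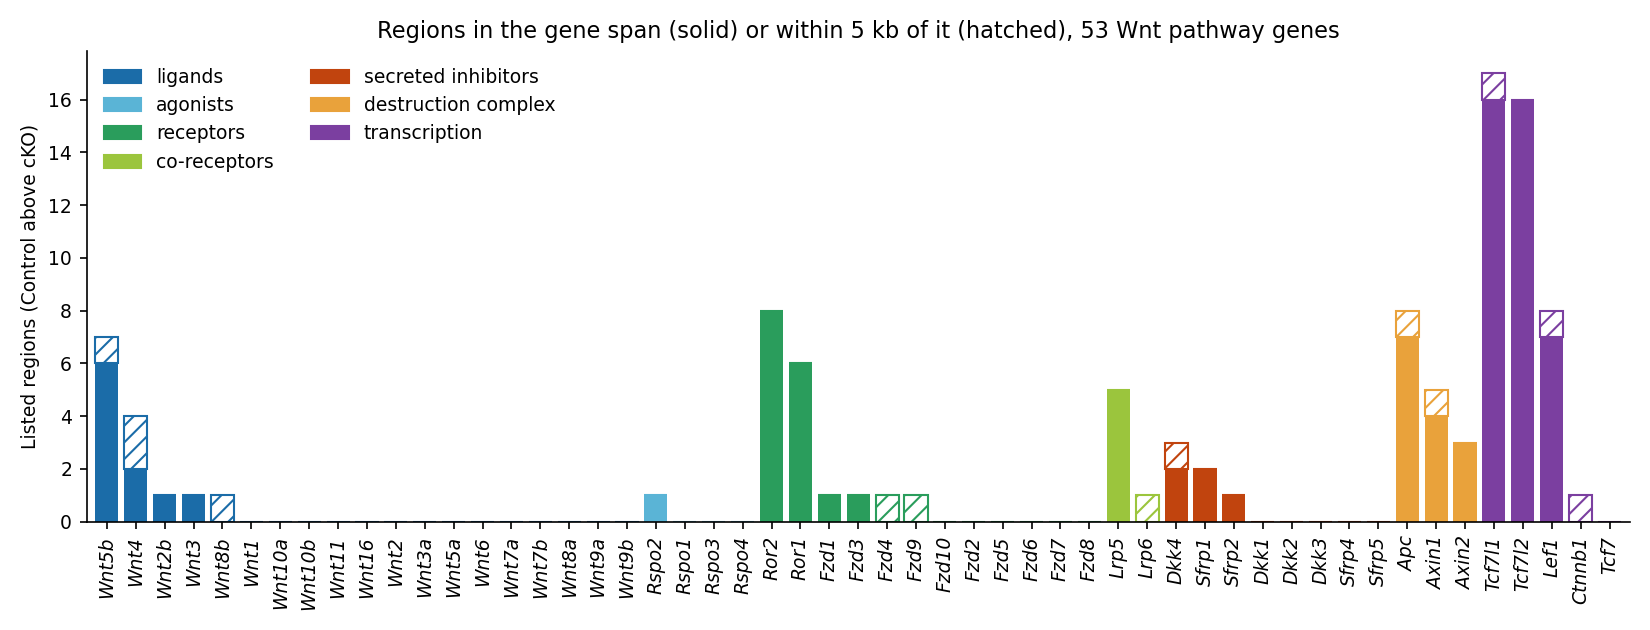
Number of listed regions (Control above cKO) for each of the 53 genes, grouped by role; solid bars count regions overlapping the gene span and hatched bars those within 5 kb of it. Tcf7l1 (17) and Tcf7l2 (16) stand highest, and 29 genes have none.

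The regions were concentrated in few genes. A single region was found for 11 genes, 2 for Sfrp1 and at least 3 for 12 genes, and those 12 held 90 of the 103 regions (87.4%). The 12 are 22.6% of the 53 genes, against 14% of all protein-coding genes. Genes of like length would give 9.7 of the 53, so 12 is near what the lengths give. The share of regions held by such genes was not computed over all protein-coding genes. Tcf7l1 and Tcf7l2 alone held 33 (32.0%). Among all protein-coding genes, longer ones carried regions more often. All 10 members over 100 kb had a region, against 84.9% of 2429 protein-coding genes of that length. Between 10 and 50 kb, 7 of 23 members had one (30.4%, 15.6 to 50.9), against 51.8% of 9017 genes. Under 10 kb it was 5 of 16 (31.2%, 14.2 to 55.6) against 23.1%. At the shares of protein-coding genes in the same length class, of 10 classes of equal size, 28.7 of the 53 genes would have a region, where 24 did. By role, 5 ligand genes had one where their lengths would give 10. The other larger roles were near the number their lengths give, with 6 receptor genes against 5.1, 3 secreted inhibitor genes against 3.6 and 4 transcription genes against 3.8. The 3 destruction complex genes compare with 2.1, both co-receptor genes with 1.6 and the 1 R-spondin gene with 2.6. Of the 15 ligand genes between 10 and 50 kb, 4 had a region (26.7%, 10.9 to 52).

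**Figure D2:**
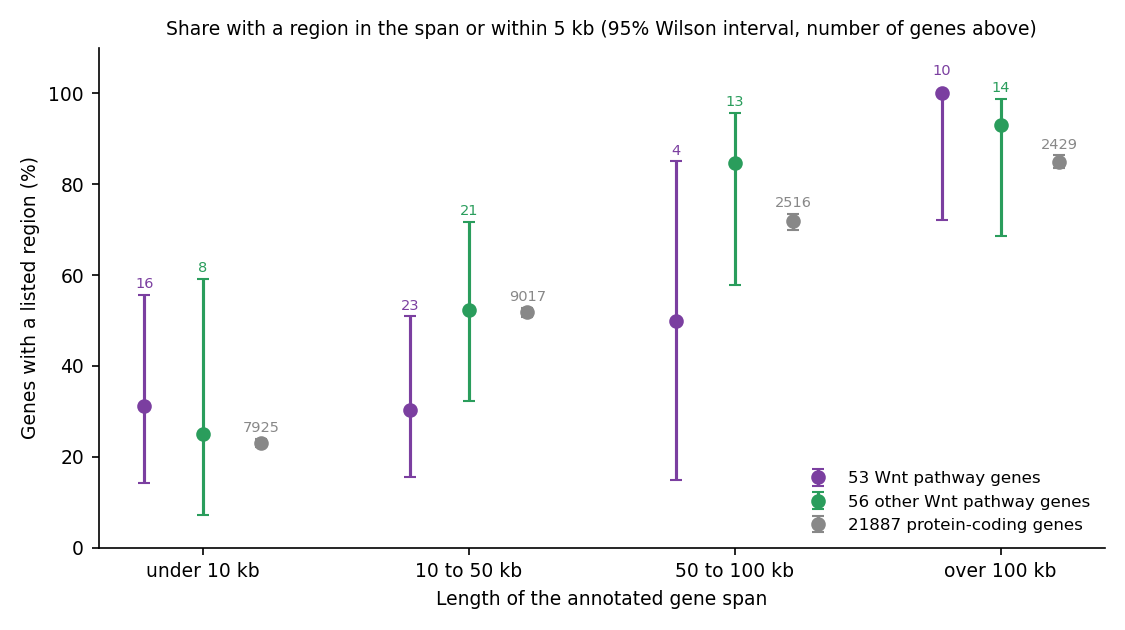
Percentage of genes with a listed region in the span or within 5 kb, by length of the annotated span, for the 53 Wnt genes, 56 other Wnt pathway genes and all protein-coding genes; bars are 95% Wilson intervals and the numbers above them count genes. The Wnt genes lie at 30.4% against 51.8% between 10 and 50 kb, and at 100% against 84.9% over 100 kb.

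Among the ligands, Wnt5b and Wnt4 held most of the regions. Wnt5b, a ligand of prehypertrophic cartilage that signals without beta-catenin, lies on chromosome 6 at 119432531 to 119544824 and had 7 regions of 21 to 213 Control tags. Their folds ran from 8.77 to 17.64, and 5 had an FDR of at most 5%. The one with the most tags (213, at 119523125 to 119523737) had a fold of 15.65 and an FDR of 0%. The Wnt5b regions were spread along the gene, with 1 beyond its transcript end and 2 in the first, the middle and the last part of its length alike. The nearest to any of its 3 listed starts lay 8555 bp away.

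Wnt4, a ligand of developing joints, differed in that its regions were all at the far end. Its 4 regions lay within 4.78 kb around the transcript end on chromosome 4 (137296807 to 137301588), with 480 Control tags together. In order of position they had 200, 88, 79 and 113 tags and folds of 7.64, 6.34, 10.38 and 13.42. The FDR was 0.36% for the first and 0.01% for the last, and 77.2% and 44.4% for the inner pair. Wnt4 is 21.9 kb long, and the first of these regions began 19.2 kb from its start.

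The other ligands with a region had a single one. Wnt3, which is needed for axis and limb formation in the mouse, had one of 242 tags near its transcript end (chromosome 11, 103816294 to 103816887), with a fold of 14.56 and an FDR of 0%. Wnt8b, a ligand of the embryonic forebrain, had one of 126 tags with a fold of 37.49 and an FDR of 0% (chromosome 19, 44517214 to 44517708). This was the largest fold among ligand regions, but it lay 2.94 kb beyond the Wnt8b span and within the neighbouring gene Sec31b. Wnt2b had a region of 132 tags with a fold of 8.30 and an FDR of 2.57%.

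No region was listed near Wnt1, Wnt2, Wnt3a, Wnt5a, Wnt6, Wnt7a, Wnt7b, Wnt8a, Wnt9a, Wnt9b, Wnt10a, Wnt10b, Wnt11 and Wnt16. Several of these are neighbours in the genome. Wnt6 and Wnt10a (49.8 kb together), Wnt3a and Wnt9a (85.5 kb) and Wnt10b and Wnt1 (23.1 kb) held 0 regions across each joint span. These joint spans were not widened, and the region nearest to Wnt10a lay 5.22 kb away. Empty spans of such length are not rare. With 5 kb added on both sides, 51.8% of protein-coding genes between 10 and 50 kb had a region, and 71.8% between 50 and 100 kb. Wnt9b and Wnt3, whose annotated spans overlap by 1098 bp, held the single Wnt3 region in 90.7 kb. The surroundings differed widely. The 500 kb on each side of Wnt1 held 70 regions, while those around Wnt5a, a ligand required for limb outgrowth, held 3, and the region nearest to Wnt5a was 94 kb away.

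R-spondins strengthen Wnt signals by protecting Frizzled and Lrp receptors from removal. Rspo2, which is needed for normal limbs in the mouse, had 1 region of 111 tags with a fold of 7.84 and an FDR of 51.44%, in a span of 151 kb on chromosome 15. Its surroundings were sparse as well, with 5 regions in the 500 kb on each side. Rspo1, Rspo3 and Rspo4 had none, the nearest lying 8.61 kb from Rspo1, 80.3 kb from Rspo3 and 52.2 kb from Rspo4.

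The receptor tyrosine kinase-like genes Ror2 (177 kb) and Ror1 (349 kb), which are long, held 14 of the 18 receptor regions. Among 2382 protein-coding genes between 88.4 and 354 kb, whose median was 2 regions (interquartile range 1 to 4), Ror2 ranked 154. Ror1 ranked 236 among 1058 genes between 175 and 698 kb, whose median was 3 (1 to 6). Ror2, a receptor for Wnt5a whose loss shortens the limbs, lies on chromosome 13 at 53109317 to 53286124 and had 8 regions, all within the span. The largest fold of all 103 regions, 49.44, was in Ror2 (53215548 to 53215813), from only 27 tags and with an FDR of 9.07%. Better supported was a region of 209 tags 3.10 kb from the transcript end (53112416 to 53112888), with a fold of 15.99 and an FDR of 0%. Of the 8, 3 had an FDR of at most 5%.

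Ror1, a related receptor of 349 kb on chromosome 4, was the longest member and had 6 regions of 52 to 204 tags. Their folds ran from 5.09 to 16.19 and 3 had an FDR of at most 5%. These 3, at 146, 204 and 165 tags, lay in the first 100 kb of the gene (100106575 to 100195740). The other 3, at 52, 91 and 82 tags, lay 239 kb or more from the start and had an FDR of 51.38% or more.

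Frizzled genes are mostly short, with a median span of 4.59 kb, and 4 of 10 had a region (40%, Wilson interval 16.8 to 68.7), 1 each. Of all protein-coding genes 47.4% had one, and of those under 10 kb 23.1%, both within that interval. Fzd3, a receptor in axon guidance, had one of 132 tags inside the gene (fold 11.91, FDR 1.88%). Fzd1 had one of 28 tags inside the gene (fold 24.55, FDR 34.88%). Those of Fzd9, which takes part in bone formation in the mouse, and of Fzd4, a receptor also for norrin, lay outside. The Fzd9 region was 1.91 kb upstream of its start (102 tags, fold 14.51, FDR 0.33%), and the Fzd4 region 2.21 kb beyond its transcript end (82 tags, fold 15.03, FDR 0.36%). Fzd2, Fzd5, Fzd6, Fzd7, Fzd8 and Fzd10 had none, with the nearest between 12.9 kb (Fzd2) and 67.1 kb (Fzd5) away.

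The co-receptors, of like length, held unlike numbers of regions. Lrp5, which sets bone mass in mice and humans, had 5 regions within its 102 kb on chromosome 19 (3584825 to 3686585), 4 of them with an FDR of at most 5%. The one with the largest fold, 30.70, had 118 tags and an FDR of 0% (3651814 to 3652412). The one with the most tags, 208, had a fold of 5.94 and an FDR of 0.8%. Lrp6, the closest relative of Lrp5, had 0 regions within its 120 kb on chromosome 6, and 1 of 147 tags 3.56 kb outside (fold 7.90, FDR 0.33%). Per 100 kb, the Lrp5 span held 4.91 regions (95% exact Poisson interval 1.60 to 11.5) and the Lrp6 span 0 (0 to 3.06). These intervals overlap. Around Lrp5 there were 2.40 regions per 100 kb (1.54 to 3.57), and around Lrp6 there were 3.60 (2.52 to 4.98).

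Secreted inhibitors either capture Wnt proteins (Sfrp) or block the co-receptors (Dkk). Dkk4, 4.33 kb long, had 3 regions within 6.77 kb on chromosome 8 (22620467 to 22627236), all with an FDR of at most 5%. They had 47, 251 and 141 tags and folds of 23.84, 14.41 and 15.40, and the last 2 lay inside the gene. Sfrp2 had 1 region of 163 tags, 457 bp from its transcript end (chromosome 3, 83773174 to 83773857), with a fold of 12.24 and an FDR of 0%. Sfrp1 had 2 regions of only 12 and 25 tags, with FDR values of 100% and 96.33%. Dkk1, Dkk2, Dkk3, Sfrp4 and Sfrp5 had none. Dkk2 stood in a wide empty stretch, its 95 kb holding no region and the nearest one lying 100 kb away, and for Dkk3 the nearest was 121 kb away.

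All 3 genes of the destruction complex held a region within 1 kb of an annotated end, against 9.64% of all protein-coding genes. A role of 3 genes is too small for a share to be compared. Axin1, the scaffold that limits the complex, lies on chromosome 17 at 26131217 to 26195811 and had 5 regions of 66 to 223 tags. All 5 had an FDR of at most 0.07%. The largest Axin1 fold, 35.35 with 66 tags, was 226 bp inside the lower-coordinate end (26131443 to 26131823). A further Axin1 region, of 223 tags, lay 4.56 kb outside that end and within Mrpl28, a gene for a mitochondrial ribosomal protein.

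Axin2, a feedback inhibitor that Wnt signalling itself induces, had 3 regions of 80, 76 and 91 tags in the last 10 kb of the gene (chromosome 11, 108941011 to 108950026), with folds of 10.53, 7.28 and 8.23. Of these, the region nearest to the transcript end had an FDR of 3.78%, and the others had 10.63% and 86.8%. Apc, the tumour suppressor that holds beta-catenin in the complex, lies on chromosome 18 at 34220297 to 34322190 and had 8 regions, 5 with an FDR of at most 5%. A region of 186 tags lay across the lower-coordinate end of Apc (34219809 to 34220338, fold 12.21, FDR 0%). Another 3 lay within 3.32 kb 13.6 to 16.5 kb from the upper end (34305238 to 34308558), with 95, 124 and 161 tags and folds of 17.39, 7.77 and 19.84. The strand of Axin1 and Apc is not in the table used here, so start and end were not told apart for them.

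The transcription genes, with a median span of 114 kb, held 42 of the 103 regions, the most of any role. Tcf7l1 and Tcf7l2 gave 33 of the 42. Tcf7l1, which acts mainly as a repressor of Wnt targets, lies on chromosome 6 at 72626371 to 72789045 and had 17 regions with 27 to 188 tags. Their folds ran from 6.43 to 28.95 (median 12.6), and 12 had an FDR of at most 5%. The largest fold came from 144 tags with an FDR of 0% (72642786 to 72643279). With the gene cut into 3 equal parts, 8 Tcf7l1 summits lay in the first, 2 in the middle and 6 in the last, and 1 region lay outside. The 3 nearest to its start, at 2.31, 5.05 and 6.72 kb, had 117, 133 and 188 tags, with FDR values of 1.15%, 0.02% and 0%. Among 2584 protein-coding genes between 81.3 and 325 kb in length, whose median was 2 regions (interquartile range 1 to 4), Tcf7l1 ranked 9.

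Tcf7l2, a beta-catenin partner known for its part in glucose metabolism, lies on chromosome 19 at 55741797 to 55933659 and had 16 regions, all within the span. They had 14 to 290 tags and folds from 5.68 to 46.14 (median 13.6), and 8 had an FDR of at most 5%. Of 3 equal parts of the gene, the last held 11 (68.8%, Wilson interval 44.4 to 85.8), the middle 1 and the first 4. The interval for the last part overlaps that of Tcf7l1 (37.5%, 18.5 to 61.4), and in both genes the middle held the fewest. A run of 5 regions covered 8.41 kb (55886398 to 55894809) with 470 tags and ended just before the inner start shown above. The region nearest to that start had 53 tags, a fold of 26.64 and an FDR of 3.47%. The best supported Tcf7l2 regions lay further on, with 290, 255 and 250 tags, folds of 10.47, 14.44 and 16.62 and an FDR of 0% each. Tcf7l2 ranked 13 among 2171 genes between 95.9 and 384 kb, whose median was 2 regions (1 to 5).

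Lef1, a factor of like function in mesenchyme and early bone cells, had 8 regions with folds from 4.30 to 28.10, of which 3 had an FDR of at most 5%. Those 3 had 219, 122 and 332 tags and folds of 16.66, 10.64 and 11.34 (chromosome 3, 131126636 to 131200192). The smallest fold of all 103 regions, 4.30 with an FDR of 100%, was 3.44 kb upstream of Lef1. Ctnnb1, the gene of beta-catenin itself, had no region within its 27.1 kb. A single one lay 2.51 kb upstream of its start, with 332 tags, as many as the largest Lef1 region and more than in any other of the 103, a fold of 8.87 and an FDR of 0% (chromosome 9, 120930230 to 120930887). Tcf7, the factor best known from T cells, had none, and the nearest lay 44.9 kb away.

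**Figure D3:**
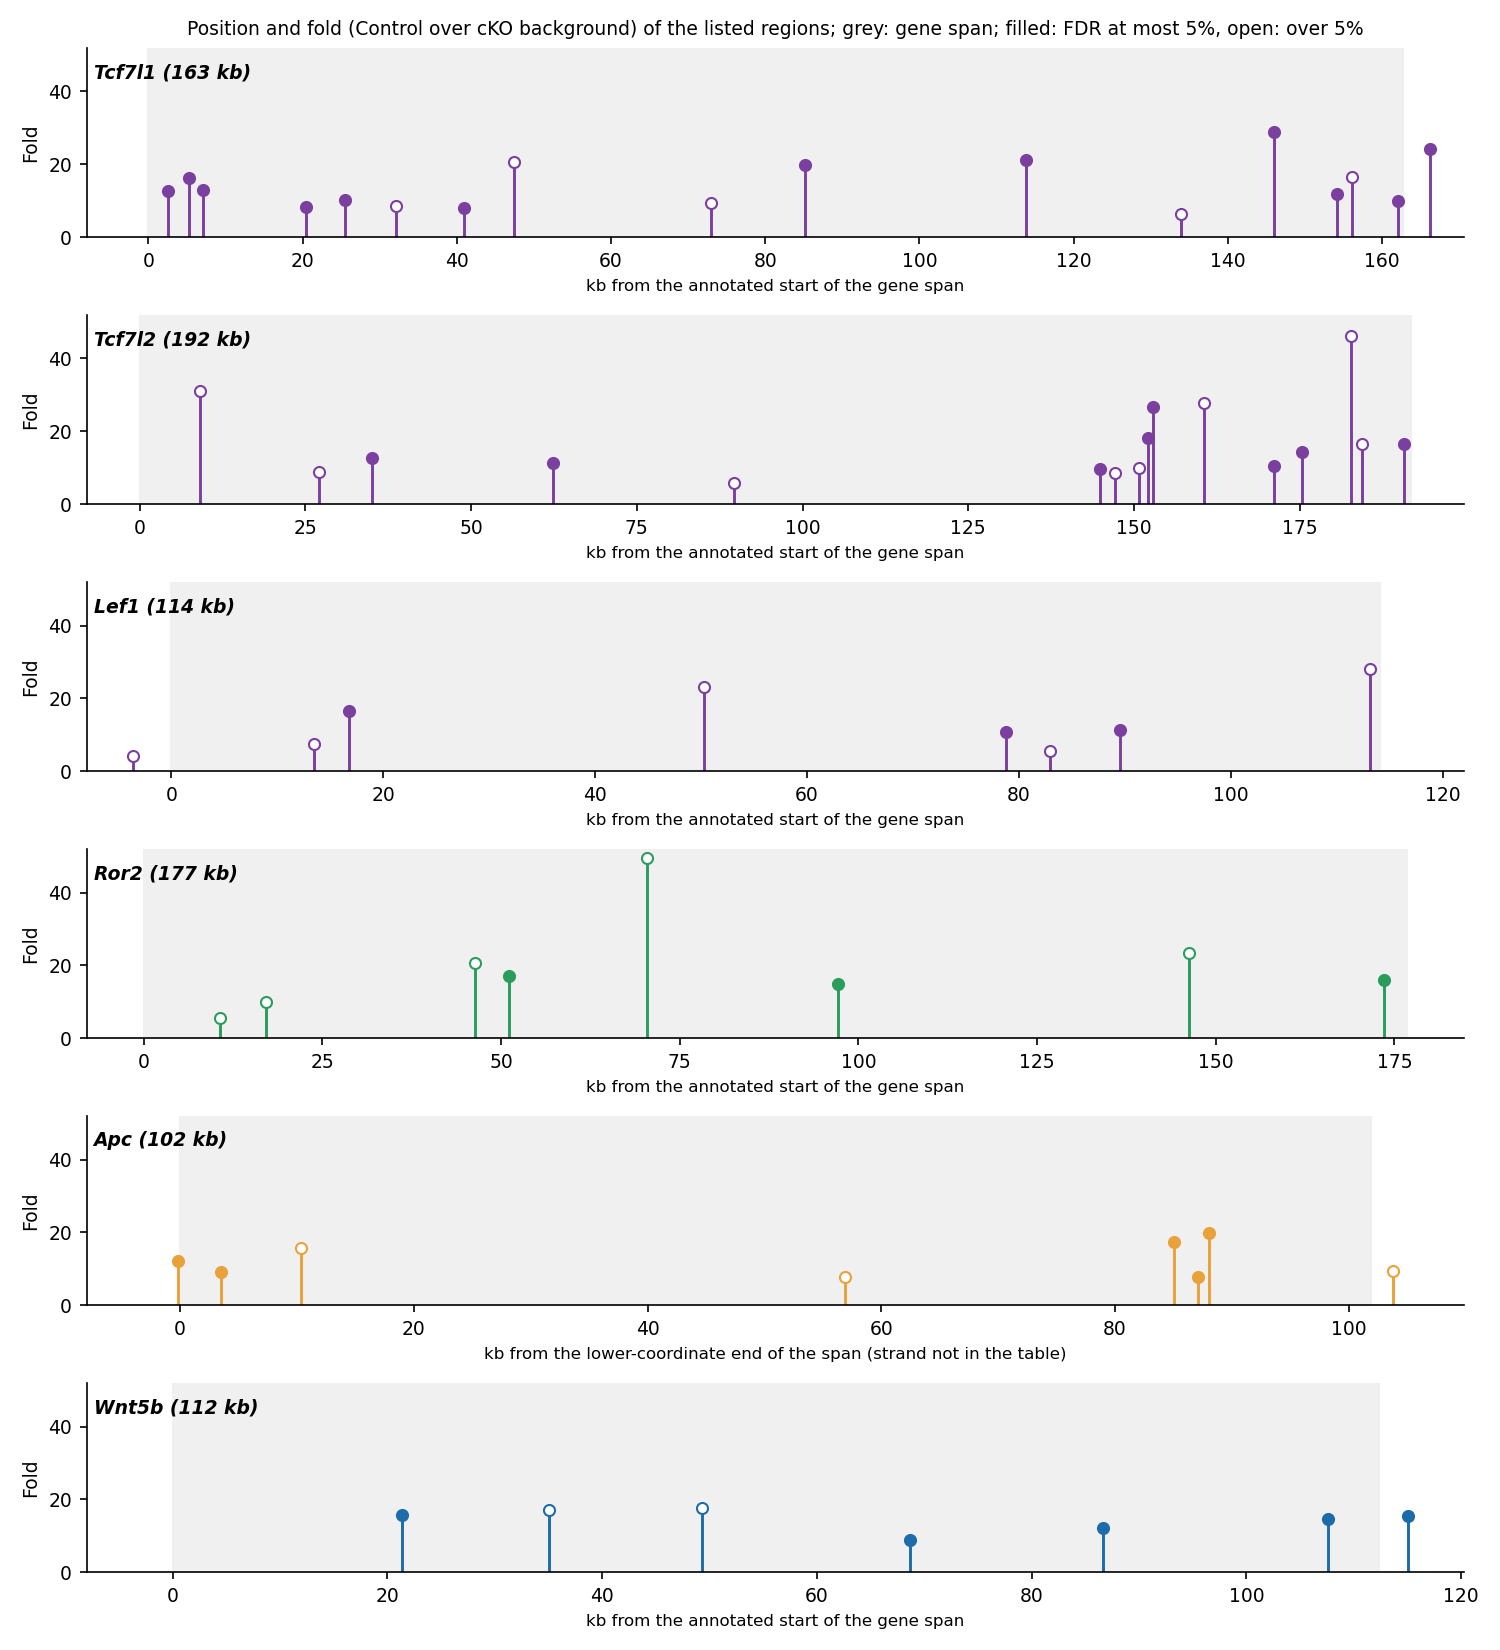
Position of each listed region along 6 of the genes (kb from the annotated start, or for Apc from the lower-coordinate end) against its fold, Control over cKO background; grey marks the gene span, filled points an FDR of at most 5% and open points a higher one. Of 16 Tcf7l1 summits in the span 2 lie in the middle of 3 equal parts, 11 of 16 in Tcf7l2 lie in the last of 3 equal parts, and the tallest points in Tcf7l2 (46.14) and Ror2 (49.44) are open.

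Tcf7l1 and Tcf7l2 held more regions for their length than the sequence around them. Within the span there were 9.84 regions per 100 kb in Tcf7l1 (95% exact Poisson interval 5.62 to 16.0) and 8.34 in Tcf7l2 (4.77 to 13.5). In the 500 kb on each side there were 3.00 (2.02 to 4.28) around Tcf7l1 and 2.60 (1.70 to 3.81) around Tcf7l2. For both genes these intervals do not overlap, but these genes were singled out for their count, so the contrast is a description. For Apc the values were 6.87 (2.76 to 14.2) in the span and 3.80 (2.69 to 5.22) around it, and for Ror2 they were 4.52 (1.95 to 8.92) and 3.60 (2.52 to 4.98). Chromosomes differed too, with 19.5 regions per Mb on chromosome 19, which carries Tcf7l2 and Lrp5, and 11.4 on chromosome 6, which carries Tcf7l1 and Wnt5b.

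**Figure D4:**
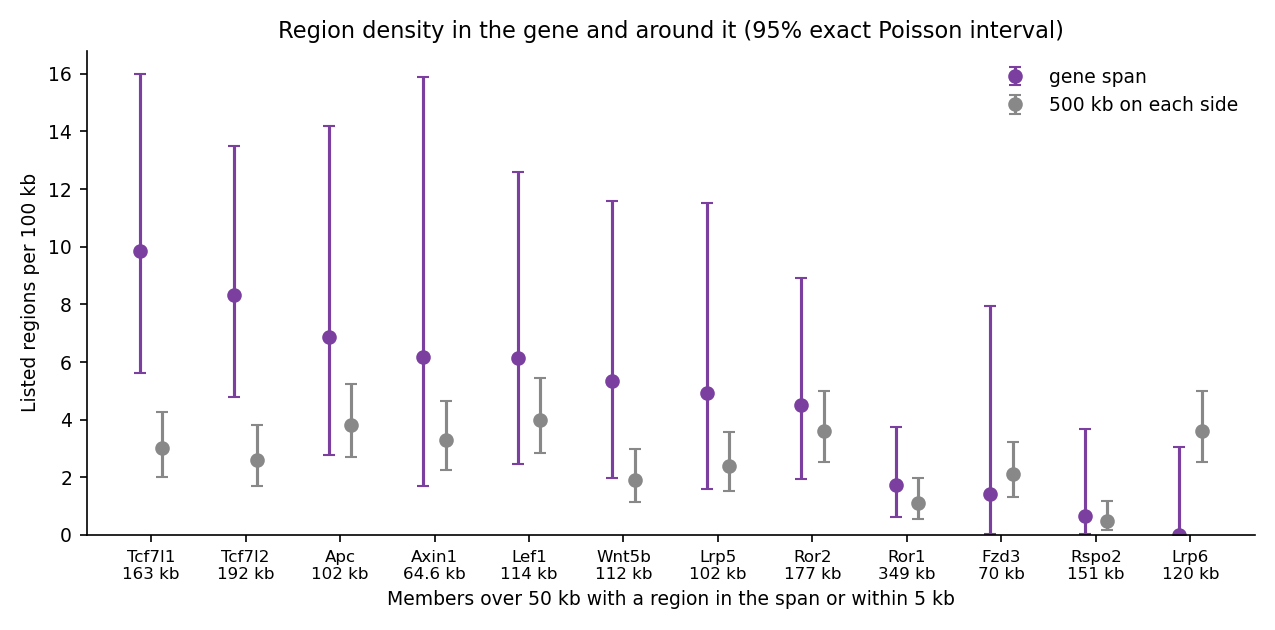
Listed regions per 100 kb within the gene span (purple) and in the 500 kb on each side of it (grey) for the 12 members over 50 kb with a region; bars are 95% exact Poisson intervals. The intervals are apart for Tcf7l1 (9.84 against 3.00) and Tcf7l2 (8.34 against 2.60) and overlap for the other 10.

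Where the strand was known, regions at gene ends lay mainly at the transcript end. A region within 1 kb of either annotated end was found for 10 of the 53 genes (18.9%), against 9.64% of all protein-coding genes. The count was 8 with an FDR of at most 5%, and 5 with an end window of 500 bp. No share of all genes is given at these settings. Of the 35 genes with a known strand, 6 had a region within 1 kb of the transcript end (Axin2, Lef1, Sfrp2, Tcf7l1, Tcf7l2 and Wnt4). At a start 1 gene had one, which was the inner start of Tcf7l2. The background shares among 17492 protein-coding genes of known strand were 6.35% at the transcript end and 4.62% at a start. The 4 genes without a known strand were Apc, Axin1, Dkk4 and Lrp5, whose end regions can lie at a start or at a transcript end. The balance of starts and transcript ends over all 10 genes is therefore not known. The Tcf7l1 region (72626691 to 72627207) was 320 bp inside the transcript end, with 112 tags, a fold of 9.83 and an FDR of 3.28%, and the Tcf7l2 one of 250 tags was 869 bp inside (55932164 to 55932790). The Lrp5 region (3585418 to 3585944) was 593 bp inside its lower-coordinate end, with 185 tags, a fold of 9.95 and an FDR of 0.02%. The regions at the ends of Lef1 (19 tags, 131223262 to 131223526, fold 28.10) and Wnt4 (79 tags) had an FDR of 100% and 44.4%, and the other 8 had an FDR of at most 5%.

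With each gene cut into 3 equal parts, the last held 35 of 68 region summits in members of known strand (51.5%, Wilson interval 39.8 to 62.9), the middle 10 (14.7%) and the first 23 (33.8%). Over all protein-coding genes of known strand the shares were 37.2% in the last, 32.2% in the middle and 30.7% in the first. Tcf7l1 and Tcf7l2 gave 32 of the 68 summits, and without them 18 of 36 (50%, 34.5 to 65.5) were in the last part. Regions of 1 gene share their surroundings, so these intervals are too narrow for the gene family.

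The strength of the regions was like that of others near genes. The median fold was 12.9 (interquartile range 9.33 to 17.2) for the 103 regions, against 11.9 (8.47 to 17.4) for 22515 regions near any protein-coding gene. The median tag count was 107 (65.0 to 158) against 108 (64.0 to 179). An FDR of at most 5% was listed for 63 (61.2%, 51.5 to 70.0), against 58.3%, and an FDR of 100% for 14 (13.6%), against 15.3%. By role, the median fold was 14 for 14 ligand regions, 14.7 for 18 receptor regions, 12.5 for 16 destruction complex regions and 12.3 for 42 transcription regions. It was 14.9 for 6 regions of secreted inhibitors and 10.6 for 6 of co-receptors, and the 1 R-spondin region had 7.84.

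The largest folds came in part from regions where the background was at its lowest possible value. As this caller is known to compute it, the background cannot fall below a genome-wide mean, taken here as 0.3034 tags per 58 bp from the 9782276 kept Control tags over 1870 Mb. The file header does not state this value. A fold equal to a whole number divided by 0.3034, within the rounding of 0.005, marks that floor. This held for 5 of the 103 regions (4.85%), against 4.64% of those near any protein-coding gene, where rounding alone would give 0.30%. The 5 were in Ror2 (49.44), Tcf7l2 (46.14), Lef1, Lrp5 and Sfrp1 (23.07 each). The fold of 23.07 stands for 7 tags at the summit, that of 46.14 for 14 and that of 49.44 for 15, and these regions had 11 to 27 tags in all. Of the 55 member regions with more than 100 tags, 0 were at the floor. Of all 18365 listed regions with more than 100 tags, 60 were (0.327%), so 0 of 55 is near that share. Among these 55 member regions, the largest fold was 37.49, near Wnt8b but outside its span and within Sec31b. Next came those in Lrp5 (30.70) and Tcf7l1 (28.95).

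**Figure D5:**
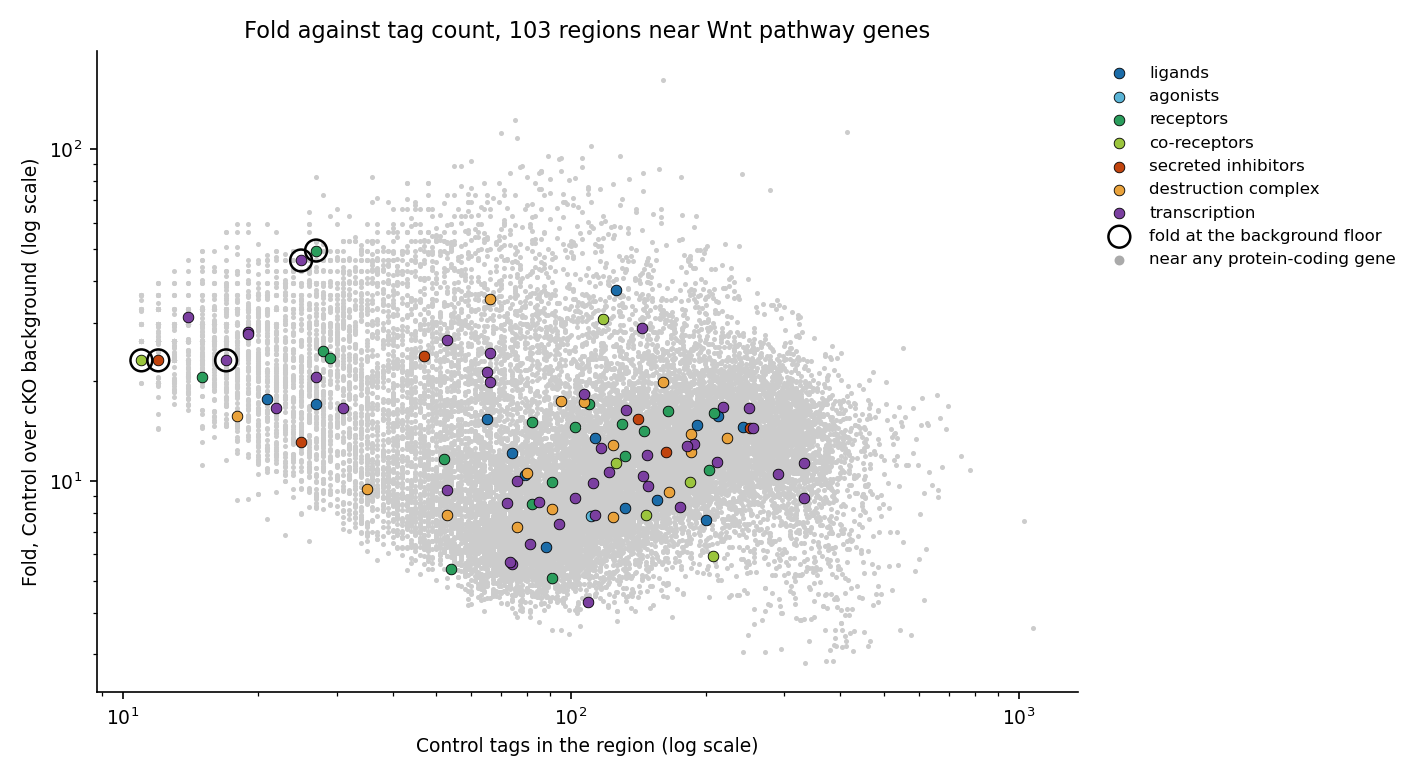
Fold (Control over cKO background) against Control tags, both on log scales, for the 103 regions near Wnt genes, coloured by role, and for all regions near protein-coding genes in grey. Circles mark the 5 folds at the background floor, which all have 11 to 27 tags.

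Other genes of the pathway, outside the symbols above, carried regions more often, at 37 of 56 (66.1%, Wilson interval 53 to 77.1). The share of all protein-coding genes was 47.4%. With an FDR of at most 5% it was 29 of the 56 (51.8%), against 35.1% of all. These 56 genes are longer, with a median span of 47.2 kb against 31.0 kb for the 53 genes. The shares of protein-coding genes of like length would give 35.5 of the 56. All 9 receptor-level genes had a region, among them Ptk7, a co-receptor of planar polarity (5 regions), and Znrf3 and Rnf43, which remove Frizzled receptors. Regions lay near 3 of 10 genes for Wnt secretion and removal, 10 of 18 cytoplasmic genes, 7 of 9 nuclear genes and 8 of 10 planar polarity genes. Genes of like length would give 5.4, 10.5, 5.5 and 6.9 in these 4 classes, and 7.3 of the 9 receptor-level genes. With an FDR of at most 5%, a region lay near 2 of 9 nuclear genes (22.2%) and 3 of 10 genes for secretion and removal. It was 9 of 18 for cytoplasmic genes, 6 of 10 for planar polarity and still 9 of 9 for the receptor level. The receptor-level genes are long, with a median span of 114 kb. Of all protein-coding genes 35.1% had a region at that limit, and no numbers for genes of like length are given for it. Prickle1, of planar polarity, had the most, at 6, followed at 5 by Ptk7, Bcl9, Celsr1, Csnk1e and Daam1.

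Regions within 1 kb of an end were found for 6 of these 56 (10.7%), a share near that of all protein-coding genes. Bcl9, which links beta-catenin to its co-activators, had one with a fold of 25.29, 82 tags and an FDR of 0.02%. For Ryk, a Wnt receptor, it was 15.62 with 176 tags, and for Gpc3, a glypican, 15.30 with 184 tags, both with an FDR of 0%. The FDR was above 5% for Csnk1e (fold 22.72), Dact1 (8.29) and Lgr5 (7.82). For the 5 of known strand, all but Lgr5, the region lay at the transcript end. These are 5 of 40 genes of known strand, and 0 of the 40 had a region at a start. The shares of all protein-coding genes of known strand were 6.35% at the transcript end and 4.62% at a start.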

How the data were processed

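Methylated DNA was captured with MBD2 from DNA sheared to about 300 bp, per the labels' protocols. Per the file headers, the authors used MACS 1.4.2 to find regions where Control exceeded cKO, at a p limit of 1e-10. The caller kept a maximum of 1 tag at a position, leaving 76.1% of cKO and 44.8% of Control tags, with a shift model of 58 bp, per the file headers. The submitters' processing notes name mm10; the aligner is not given in the sources used here. The deposited tag count holds Control tags only. The deposited fold is a ratio, the deposited score is the caller's p as its negative log10 multiplied by 10, and the deposited FDR is a percent.

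Spans came from RefSeq (GRCm38.p6). Strand, starts and printed sequences came from its promoter table, which covers 17492 of 21887 protein-coding genes. Overlap needed 1 bp. The overlap code was tested on simulated data. With 1 library per genotype no test was run. The members and lists were chosen with earlier results of these data known. Described in full were members with a region at an end, with at least 3 regions, or among the 5 largest folds, and other members with a region in brief. Alternatives varied the p, FDR and tag limits, the windows, the overlap and the joining of regions. Wilson and exact Poisson intervals were computed with SciPy 1.17.1, tables with pandas 2.3.3 and NumPy 2.4.6 under Python 3.11.15, and figures with Matplotlib 3.10.9.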

Additional observations from a re-analysis of the deposited data

How the results depend on the processing

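With the FDR limited to 5%, 63 regions were left near the 53 genes in place of 103, and with an end window of 500 bp, 5 genes had a region at an end in place of 10. Both alternatives count fewer regions or a narrower window by construction. Across all alternatives, the number of genes with a region ran from 19 (gene span alone) to 27 (10 kb on each side), against 24 as reported. The number of regions ran from 63 to 114, the genes with a region at an end from 5 to 13, the median fold from 11.6 to 13.4, and the other pathway genes with a region from 29 to 39. The share of the 53 genes was 39.6% at a score of at least 200, against 39.9% of all protein-coding genes, and 50.9% with 10 kb, against 54.7%. The genes added with 10 kb were Wnt10a, Rspo1 and Wnt8a, at 5.22, 8.61 and 8.81 kb. Leaving out regions at the background floor, an alternative chosen after seeing the data, left 98 regions near 24 genes. A region with few Control tags has an uncertain fold, and regions under the p limit are not in the list. No paired analysis was possible because there was 1 library per genotype.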

Other observations

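Long genes without a region in the span or within 5 kb were uncommon, among pathway genes as among all protein-coding genes. Over 100 kb, all 10 Wnt genes and 13 of 14 other pathway genes (92.9%) had a region, against 84.9% of 2429 protein-coding genes. For Lrp6 (120 kb) the region lay 3.56 kb outside, and the span alone held 0. Of 2586 protein-coding genes of at least 95 kb, which is the length of Dkk2, 404 (15.6%) had no region in the span or within 5 kb. Among the Wnt genes this was Dkk2 (95 kb), and among the other pathway genes Wls (99 kb), which carries Wnt proteins to the cell surface, and Trabd2b (208 kb), a membrane protease that inactivates Wnt proteins.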
